A study of Mus musculus with 22 samples.

Results

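Aortic smooth muscle cells cultured from mice that lack tenascin C (TNC) were given exogenous TNC together with tumour necrosis factor alpha (TNF), and their RNA was compared with that of the same kind of cells given neither factor. The comparison rests on 7 of the 22 arrays of the study, 4 with both factors and 3 with none, chosen by their treatment labels, and on 15636 of the 18193 genes that a probe set names alone. Each gene is represented by its probe set of highest mean, and a change is the mean log2 signal with both factors minus that of the untreated arrays.

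All cells came from the suprarenal aorta of male Tnc-knockout (TNC-KO) C57BL/6 mice, were freed by enzymatic dispersion and grew in Dulbecco's modified Eagle medium with 10% fetal bovine serum. The arrays with both factors are of 4 cultures given TNC at 10 µg/mL and TNF at 10 ng/mL, and the untreated arrays are of 3 cultures. The other arrays of cells had TNC alone (4) or TNF alone (3), at these same concentrations. The remaining 8 arrays hold aortic tissue and entered only the choice of probe sets. The design text gives 24 h of TNF and counts 3 independent cultures without TNC and 4 with it. Arrays with both factors and untreated arrays are therefore of different cultures, so an effect of TNC cannot be told apart from a difference between these sets of cultures or from any substance carried along with the TNC preparation. On that count, arrays with both factors may be of the same cultures as those with TNC alone, and untreated arrays of the same cultures as those with TNF alone, which the sources do not say. How many animals gave each culture, and for how long TNC was present, is not given in the sources used here. All groups, the untreated one included, carry the Tnc knockout.

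The matrix glycoprotein tenascin C binds integrins and Toll-like receptor 4, is scarce in the resting arterial wall and is made at sites of injury and mechanical load. TNF is a cytokine of activated leukocytes that acts through its receptors on the transcription factors NF-kB and AP-1, and it induces chemokines, adhesion molecules and proteases in vascular cells. Smooth muscle cells of the aortic media hold contractile filaments and build the elastic and collagen fibres, and in culture they lose part of the contractile programme.

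The microarray measures the brightness of probe sets in arbitrary units, and the deposited signals of every array had been scaled to a trimmed mean of 500. The brightest probe set of each cell array lay between 26914 and 33291, and members near that ceiling may differ by more than their signals do. A group mean below the 30th percentile of all probe sets (22.6 without factors, 19.1 with both) is called near background here, and a log2 change that starts there has no firm size. Beside such a log2 change, that on the scale of log2(signal + 32) is given too. Correlations between replicate arrays ran from 0.962 to 0.969, and those between untreated arrays and arrays with both factors from 0.922 to 0.932. Tnc, the deleted gene, read 122, 144 and 100.4 on the untreated arrays and 80.5, 82.5, 82.7 and 66.3 with both factors (log2 change -0.64, SE 0.15, adjusted p = 0.0049), dim in both groups, and the mean over its probe sets went the other way (0.18). All 8 smooth muscle markers were above background in both groups, although Myh11, the smooth muscle myosin heavy chain, was dim even without factors (366, 266 and 407). Markers of endothelial cells were bright as well: Emcn (endomucin) averaged 12660 and 9795, and Pecam1 3216 and 3507, in untreated cells and with both factors. In RNA from whole cultures, fewer cells of a type and less RNA per cell cannot be told apart.

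With both factors 3213 genes were higher than without (20.5% of those tested) and 3488 were lower (22.3%), at an adjusted p under 0.05 in limma's fit over the 14 arrays of cells. Together these are 42.9% of the tested genes, the background against which the lists below are read. At least 2-fold differences were called for 812 higher genes (5.19%) and 1016 lower genes (6.5%). The 4 arrays with both factors did not overlap the 3 untreated arrays in 47.0% of genes. Higher genes made up 47.9% of calls, a share that rose to 71.5% when each array was centred on its median: centring moved the median change of all genes from -0.06 to 0.15, and only changes clearly larger than this shift have a direction free of the scaling. Median centring gave 4776 higher and 1906 lower genes, the background for list counts quoted with it below. Against TNC alone, 1474 genes were higher with both factors (9.43%) and 1928 lower (12.3%), and against TNF alone 2522 were higher (16.1%) and 1851 lower (11.8%). These comparisons share the arrays with both factors and are not independent of each other.

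On the first 2 principal components the 14 arrays formed 4 separate groups. The untreated arrays lay between -72 and -70.5 on component 1 and the arrays with both factors between 34.4 and 44.4, beyond TNC alone (-4 to 3.7) and TNF alone (17.6 to 18.9). On component 2, arrays with both factors (8.1 to 17.2) lay between TNC alone (28.5 to 34.8) and TNF alone (-55.5 to -50.4). The median absolute log2 change was 0.36 against untreated cells, 0.26 against TNF alone and 0.21 against TNC alone.

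**Figure D1:**
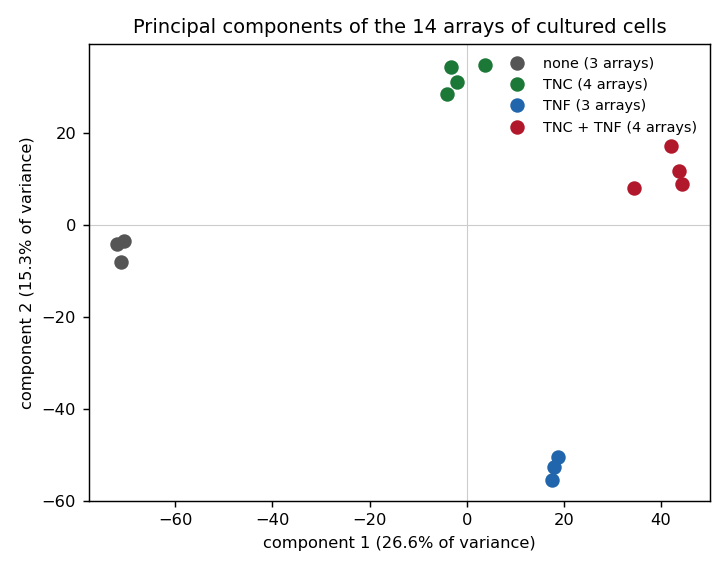
Position of each of the 14 arrays of cultured cells on principal components 1 (26.6% of variance) and 2 (15.3%) of log2 signal; each point is 1 array, coloured by treatment. The 4 arrays with TNC and TNF lie farthest from the 3 untreated arrays on component 1.

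Of the 23 tested cytokines and colony-stimulating factors, 12 rose and 4 fell, with a median change of 0.68 beside -0.06 over all genes. Il6, which encodes interleukin 6, a cytokine that drives the acute phase response, read 552, 435 and 412 on the untreated arrays and 21160, 24290, 21110 and 19230 with both factors (log2 change 5.53, SE 0.14, adjusted p = 1.19e-10 in limma). Every treated array stood far above every untreated one, and the mean with both factors also exceeded those with TNC alone (11340) and TNF alone (6339). Csf2 encodes the granulocyte-macrophage colony-stimulating factor. It was near background without factors (6.06, 4.901 and 11.7) and read 2423, 2264, 2471 and 1653 with both (log2 change 8.28, SE 0.53, adjusted p = 2.39e-07; 5.81 on the scale with 32 added). Neither factor alone came near this level, with means of 61.4 for TNC and 19.5 for TNF. Csf3, the granulocyte colony-stimulating factor, went from 8.998, 17.5 and 18.6 to 1195, 1133, 1266 and 609.9 (log2 change 6.14, SE 0.52, adjusted p = 2.48e-06; 4.48 with 32 added), and its mean was 435 with TNC alone and 11.4 with TNF alone. Lif, a cytokine of the interleukin 6 family, rose from a mean of 73.1 to 1465, Tslp, a cytokine that acts on dendritic cells, from 132 to 1215, and Csf1, the macrophage colony-stimulating factor, from 3827 to 14470, all without overlap between the groups. Replicate 4 with both factors was the lowest of the 4 for Csf3, Lif and Tslp.

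**Figure D2:**
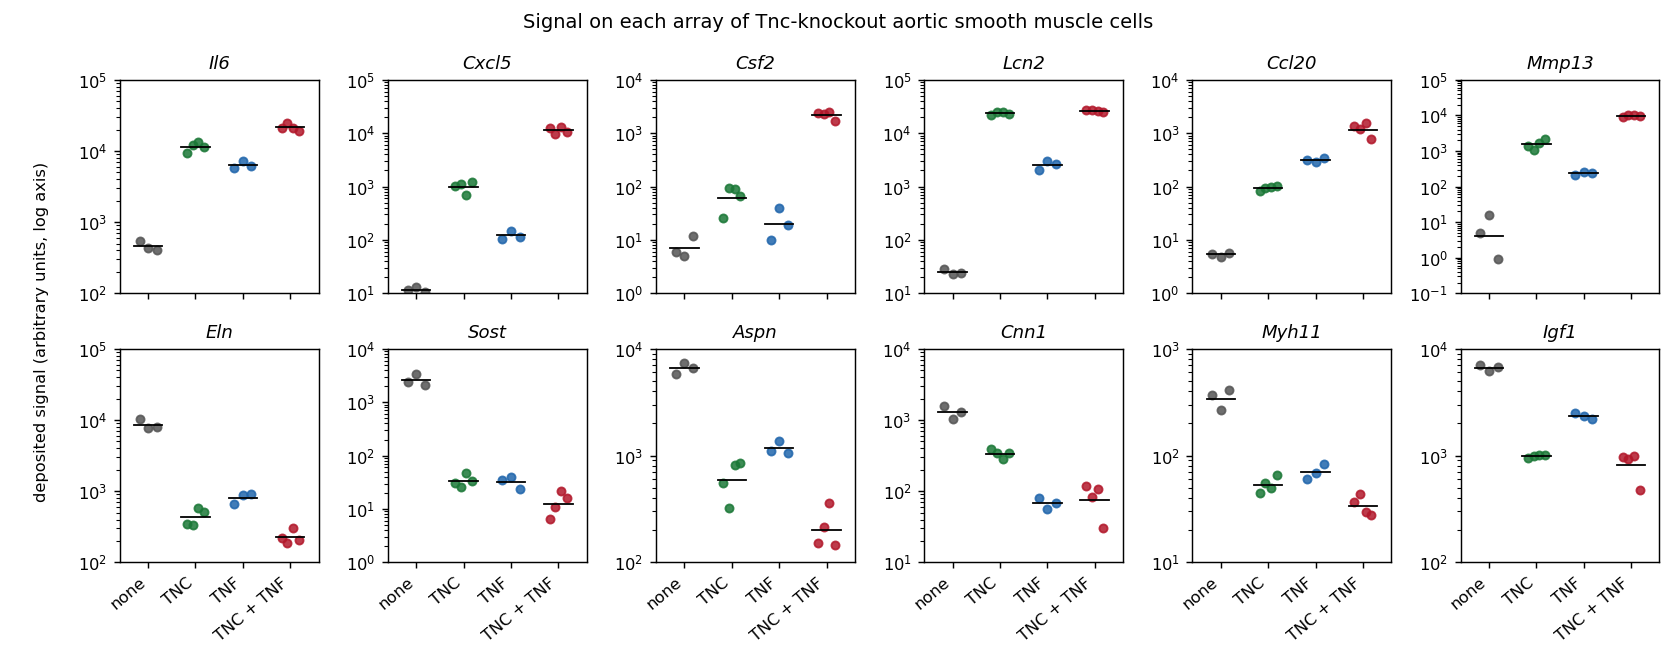
Deposited signal (log axis, arbitrary units) of 12 genes on every array of cultured cells, in the groups none (3), TNC (4), TNF (3) and TNC with TNF (4); points are arrays and bars geometric means. The upper 6 genes have their highest means with both factors, and the lower 6 lie well below the untreated arrays.

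Promoter sequences of some genes that rose together are shown, all of them with a match to a motif named below. Which factor lay behind a rise was not tested. RefSeq promoters (GRCm38.p6), 300 bases around each gene's start, were held for 10 of the 15 genes with the largest rises and for 14 of the 15 with the largest falls. Capitals mark matches, on either strand, to the kappa B motif GGNNTTTCC, the AP-1 motif TGACTCA or the interferon-stimulated response element GAAANNGAA. The promoters lie at chr5:30012864-30013163, plus strand (Il6), chr1:83116516-83116815, plus strand (Ccl20), chr7:46715627-46715926, minus strand (Saa3) and chr9:7272264-7272563, plus strand (Mmp13).
Il6: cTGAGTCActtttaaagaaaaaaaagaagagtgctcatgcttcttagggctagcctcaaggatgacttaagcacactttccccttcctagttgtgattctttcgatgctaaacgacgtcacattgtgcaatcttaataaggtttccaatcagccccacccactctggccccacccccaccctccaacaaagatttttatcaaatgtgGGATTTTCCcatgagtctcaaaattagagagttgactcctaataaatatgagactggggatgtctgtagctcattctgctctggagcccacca
Ccl20: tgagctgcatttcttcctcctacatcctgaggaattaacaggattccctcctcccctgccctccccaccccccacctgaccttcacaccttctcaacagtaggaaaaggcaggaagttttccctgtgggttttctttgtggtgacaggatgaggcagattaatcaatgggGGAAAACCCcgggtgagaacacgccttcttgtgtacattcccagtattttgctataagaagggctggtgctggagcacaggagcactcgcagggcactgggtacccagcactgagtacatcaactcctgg
Saa3: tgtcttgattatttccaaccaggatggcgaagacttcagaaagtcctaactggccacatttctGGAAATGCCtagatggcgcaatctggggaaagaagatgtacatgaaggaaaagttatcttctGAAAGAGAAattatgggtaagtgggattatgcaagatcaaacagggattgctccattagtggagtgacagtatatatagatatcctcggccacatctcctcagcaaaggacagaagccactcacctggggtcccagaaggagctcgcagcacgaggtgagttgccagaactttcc
Mmp13: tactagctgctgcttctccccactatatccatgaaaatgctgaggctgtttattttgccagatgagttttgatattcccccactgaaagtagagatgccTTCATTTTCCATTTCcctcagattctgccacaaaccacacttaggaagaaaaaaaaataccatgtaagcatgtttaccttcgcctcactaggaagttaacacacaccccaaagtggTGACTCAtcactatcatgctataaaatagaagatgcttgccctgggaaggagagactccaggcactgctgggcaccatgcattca
In Il6 the kappa B match starts 43 bases before the start of the gene and the AP-1 match 249 bases before it, and in Mmp13 the AP-1 match starts 35 bases before it. A kappa B match was present in 4 of the 10 promoters of rising genes (Ccl20, Csf2, Il6 and Saa3), an AP-1 match in 3 (Il13ra2, Il6 and Mmp13) and an interferon element in 3 (Csf2, Mmp13 and Saa3). Gpr84, Lcn2, Slc2a6 and Wfdc17, the other rising genes with a promoter, held none of these motifs, and their promoters are not printed. Among the 14 falling genes the counts were 0, 0 and 1 (Colec11). Over all 27025 genes with a promoter, 6.6%, 5.9% and 9.8% held these motifs. The matches describe letters in this window, and whether any factor binds there was not measured.

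The list of CXC chemokines that draw neutrophils, to which Pf4 was added, had 5 of 6 tested members higher and 1 lower. Its median change, with Pf4 included, was 4.01. Cxcl5 was near background in untreated cells (11.4, 12.9 and 10.8) and read 12230, 9607, 13030 and 10410 with both factors (log2 change 9.91, SE 0.19, adjusted p = 2.08e-11; 8.01 with 32 added). TNC alone gave 1001 and TNF alone 121, so that the arrays with both factors were the highest by a wide gap. Cxcl1 rose from 2481, 2839 and 2775 to 31120, 29300, 27000 and 30780 (log2 change 3.45, SE 0.07, adjusted p = 2.22e-11), which is close to the ceiling of the arrays. Cxcl2 rose from a mean of 1734 to 25890, while Cxcl3 stayed dim (1.98 and 49.3). Pf4, platelet factor 4, also on this list, read 73.2, 63.3 and 68.3 without factors and 1248, 1228, 1336 and 983 with both, above 160.2 with TNC and 228 with TNF alone. Cxcl15 went the other way, from 7840, 7572 and 7572 to 1958, 1940, 1778 and 1229 (log2 change -2.17, SE 0.17, adjusted p = 1.08e-06), and was at a similar level with TNF alone (1970).

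Among CC and CX3C chemokines 8 of 16 rose and 1 fell. Ccl2, which recruits monocytes, read 908, 751 and 831 untreated and 22670, 20960, 17720 and 21670 with both (log2 change 4.64, SE 0.10, adjusted p = 5.08e-11). Its treated arrays were again near the ceiling, and its means with TNC alone (16040) and TNF alone (18680) were not far below. Ccl20, the ligand of CCR6 on lymphocytes and dendritic cells, rose from 5.53, 4.81 and 5.76, near background, to 1340, 1182, 1550 and 761 (log2 change 7.77, SE 0.20, adjusted p = 1.27e-10; 5.01 with 32 added), against 93.95 with TNC and 315 with TNF alone. Ccl5, a chemokine for T cells and monocytes, read 85.6, 4.94 and 80.9 untreated and 16940, 15780, 14960 and 15040 with both, with 4536 under TNC alone and 18650 under TNF alone. Ccl7 rose from a mean of 129 to 15090 and Ccl8 from 67.2 to 2882. The other CXC chemokines behaved in a mixed way, with 4 of 8 higher and 1 lower (4 and 0 with median centring). Cxcl10, an interferon-induced ligand of CXCR3, read 108, 64.1 and 58.1 without factors and 504, 704, 1004 and 550.5 with both (log2 change 3.17, SE 0.30, adjusted p = 5.69e-06), far under its mean of 12070 with TNF alone (change against TNF alone -4.18, adjusted p = 2.5e-06). Cxcl9 was likewise highest with TNF alone (1.74 without factors, 52.1 with TNC alone, 3078 with TNF alone and 93.03 with both). Cxcl16, a membrane-bound chemokine, was highest with both factors (910.5 without factors, 4105 with TNC alone, 7807 with TNF alone and 9628 with both).

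All 19 tested genes of NF-kB and its feedback rose (median change 1.99), beside 20.5% of all genes. Nfkb1, Tnip3 and Ripk2, also on the list, had no probe set that names them alone and were not tested. The inhibitors were among the genes that rose. Nfkbie, which encodes I-kappa-B epsilon, read 281, 291 and 279.8 untreated and 4580, 4187, 4337 and 3501 with both (log2 change 3.86, SE 0.08, adjusted p = 3.57e-11), and Nfkbia, I-kappa-B alpha, 5917, 5448 and 6210 untreated and 20160, 17770, 17570 and 18090 with both (log2 change 1.65, SE 0.07, adjusted p = 6.62e-09). Tnfaip3, the ubiquitin-editing enzyme A20 that ends NF-kB signalling, rose from a mean of 696 to 5260, and the anti-apoptotic Birc3 from 556 to 7689. Of the subunits, Relb rose from 269.9 to 1997, and Rela had the smallest change on the list (0.92). Nfkbiz, an atypical I-kappa-B that assists transcription of Il6 and Lcn2, had levels of 666 without factors, 6035 with TNC alone, 1747 with TNF alone and 6874 with both. Against TNF alone, 2 of the 19 were higher and 5 lower with both factors, beside 16.1% and 11.8% of all genes. Against TNC alone 15 were higher and 0 lower, beside 9.43% and 12.3%.

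Sensors of pattern recognition and the inflammasome rose for 16 of 19 members, and Tlr6 fell, a call that did not hold with median centring, where no member fell. Tlr2, a receptor for lipoproteins, went from 348, 290.4 and 328 to 6511, 6220, 6192 and 4799 (log2 change 4.20, SE 0.10, adjusted p = 1.07e-10). Casp4, the intracellular sensor of lipopolysaccharide known in mice as caspase 11, rose from a mean of 427 to 4897. Cd14, the co-receptor of Toll-like receptor 4, read 134, 126 and 93.7 untreated and 1224, 1178, 1066 and 981 with both (log2 change 3.25, SE 0.20, adjusted p = 1.49e-07), with 1396 under TNC alone and 172 under TNF alone. Lbp, the lipopolysaccharide-binding protein, had the lowest adjusted p-values of the comparison together with Lcn2 and read 65.6, 66.8 and 57.6 untreated and 9046, 10040, 8087 and 8250 with both (log2 change 7.13, SE 0.09, adjusted p = 8.33e-13). Irak3, an inhibitor of Toll-like receptor signalling, rose from 94.7 to 629.

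Acute phase genes and the C/EBP family behind them were higher for 15 of 16 members (median 3.39), with Il1r1 as the member that was not called (0.15, adjusted p = 0.111, but called higher with median centring and with the replicate block). Lcn2, lipocalin 2, binds bacterial siderophores. It read 28.97, 23.4 and 23.7 without factors and 26700, 27560, 26260 and 25370 with both (log2 change 10.04, SE 0.12, adjusted p = 8.22e-13), near the ceiling, where TNC alone already gave 23670 and TNF alone 2525. Saa3, a serum amyloid A made outside the liver, read 23.5, 42.1 and 92.8 untreated and 29280, 23700, 22530 and 26460 with both (log2 change 9.13, SE 0.35, adjusted p = 3.55e-09), with 24160 under TNC and 10730 under TNF alone. Haptoglobin (Hp) rose from a mean of 538 to 13150 and ceruloplasmin (Cp), a copper-carrying ferroxidase, from 1398 to 22270. Wfdc17, a small secreted protein with a whey acidic domain, was near background without factors (2.72, 3.66 and 2.68) and read 2631, 2561, 2019 and 2736 with both. It was higher still with TNC alone, at 4926 (change of both against TNC -1.0, adjusted p = 0.000328). Complement genes split, with 5 of 11 higher and 4 lower (5 and 3 with median centring). Cfb, factor B of the alternative pathway, rose from 65.7, 40.98 and 52.2 to 5419, 5058, 4615 and 4182 (log2 change 6.53, SE 0.14, adjusted p = 3.4e-11), C1ra and C1s1 of the classical pathway from means of 1718 to 6149 and 2624 to 7529, and Masp1 of the lectin pathway fell from 2826 to 645.

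Some genes known from neutrophils moved along with these lists, and their part in the results was not tested. Of 6 tested neutrophil markers 3 rose, beside 20.5% of all genes. Of the 8 with a probe set, 5 were near background without factors, Camp and S100a8 among them, and 2 with both. Markers near background without factors can pass the brightness filter through stimulated arrays, so the count of rises is partly set by that filter. The summed signal of the neutrophil marker list was 119.9 to 196 on untreated arrays and 739 to 939 with both factors. Camp (cathelicidin) averaged 16.5 and 483 and S100a8 13.1 and 191, whereas S100a9 and Cxcr2 were near background in both groups, and Mpo read 24.3 and 20.4. Of 10 tested macrophage markers 2 rose (Adgre1 and Cd68) and 1 fell (Tyrobp), beside 20.5% and 22.3% of all genes. The calls of Adgre1 and Tyrobp were lost when single arrays were left out. Macrophage markers summed to 988 to 1443 on untreated arrays and 1377 to 1604 with both factors. Ptprc, the common leukocyte antigen, Itgam, Cd163 and Aif1 were near background in both groups. Lymphocyte markers were near background in 7 of 9 cases in each group (sums 206 to 261 and 97.8 to 175), and so were most mast cell markers (5 of 7 without factors, 6 with both), with sums of 195 to 215 and 212 to 256.

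Leukocyte adhesion molecules rose for 9 of 12 members and fell for 3 (9 and 2 with median centring). Icam1, a ligand of leukocyte integrins, read 5544, 5975 and 6452 untreated and 27240, 26630, 24090 and 26590 with both (log2 change 2.13, SE 0.07, adjusted p = 1.62e-09), the latter near the ceiling. Vcam1, the ligand of VLA-4, rose by less, from 10810, 12920 and 12890 to 22610, 21920, 22270 and 20390 (log2 change 0.84, SE 0.09, adjusted p = 1.22e-05), and its mean was 25140 with TNF alone. The selectins rose too, Selp (P-selectin) from a mean of 3104 to 12800 and Sele (E-selectin) from 169.8 to 989. Madcam1, an addressin of gut and lymphoid vessels, went from 24.2 to 1196 and was at 1155 with TNF alone and 101 with TNC alone. Mcam, an adhesion molecule of vascular cells, fell from 1824 to 382. Endothelial markers had 1 of 12 higher (Cdh5) and 3 lower (Emcn, Tek and Vwf), beside 20.5% and 22.3% of all genes. Of the lower markers only Tek stayed so with median centring, where Pecam1 was called higher, by 0.33. Endothelial markers summed to 23510 to 26270 on untreated arrays and 21220 to 22780 with both factors. Their part in the result was not tested.

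Interferon-stimulated genes were raised against untreated cells and lowered against TNF alone. Of 30 antiviral members 23 rose against untreated cells (median 1.14) and 28 against TNC alone, while 29 were lower than with TNF alone (median -1.90). The backgrounds for the last pair of counts are 9.43% and 11.8%. Rsad2 (viperin), which blocks viral replication, read 321, 117 and 167 without factors and 767, 879, 889 and 1142 with both (log2 change 2.30, SE 0.32, adjusted p = 0.000114). Its means were 63.7 with TNC alone and 8584 with TNF alone, so the arrays with both factors sat between the untreated ones and those with TNF. Mx1, a GTPase against influenza viruses, had levels of 42.8 without factors, 200.4 with TNC alone, 1519 with TNF alone and 409 with both, and Zbp1, a sensor of Z-form nucleic acid, of 14.2 without factors, 35.9 with TNC alone, 3859 with TNF alone and 405 with both. Ifit1 read 2073, 896 and 1493 untreated and 4525, 4742, 3434 and 5622 with both (log2 change 1.68, SE 0.32, adjusted p = 0.00121) and averaged 15910 with TNF alone.

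Interferon-induced GTPases of the GBP and IRG families and the genes of antigen presentation mostly lay between untreated cells and TNF alone. Of 9 GTPases 8 rose against untreated cells, and 8 were lower than with TNF alone, beside 20.5% and 11.8% of all genes. Gbp6 read 452, 309.5 and 423 untreated and 11900, 11650, 11210 and 9982 with both (log2 change 4.84, SE 0.12, adjusted p = 1.04e-10), and Gbp3 had means of 1063 without factors, 948 with TNC alone, 14310 with TNF alone and 4288 with both. All 14 tested members of the MHC class I and antigen processing list rose (median 1.5). Of these, 11 were called lower than with TNF alone, beside 11.8% of all genes. Psmb8, a catalytic subunit of the immunoproteasome, read 499, 399 and 448 untreated and 3448, 3412, 2958 and 2974 with both (log2 change 2.84, SE 0.09, adjusted p = 5.23e-10), and its mean with TNF alone was 8687. Psmb9 and Psmb10, the other such subunits, rose from 280.5 to 1687 and from 829.8 to 4967.

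**Figure D3:**
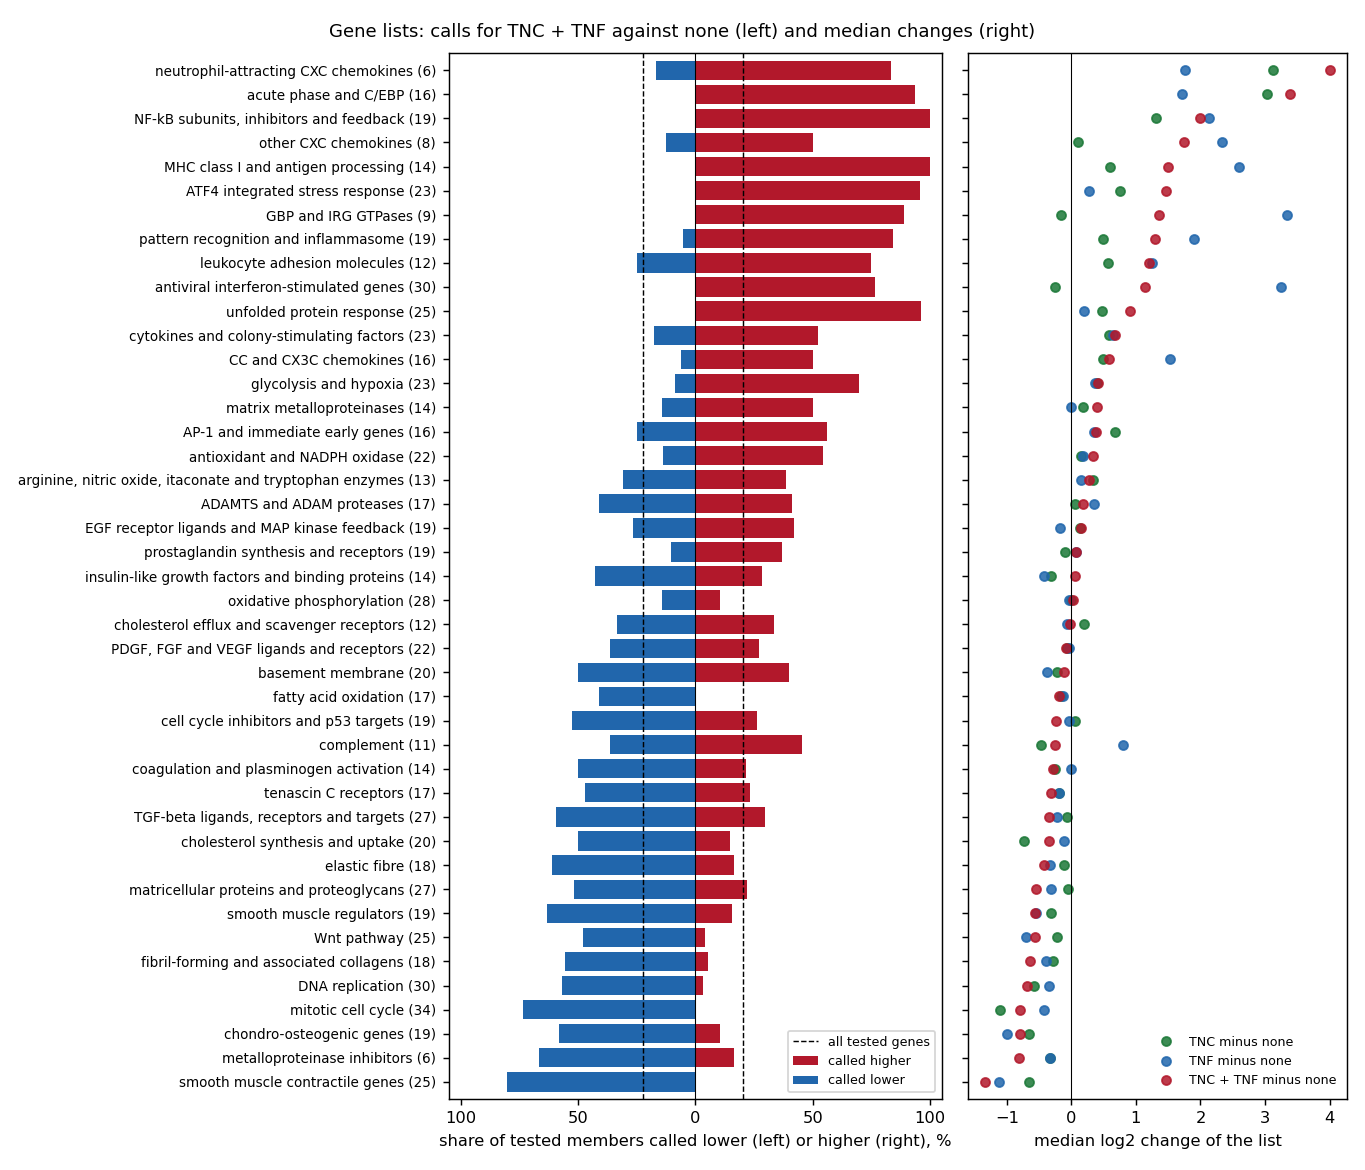
Left, share of the tested members of 43 gene lists (number tested in brackets) called higher or lower with TNC and TNF than in untreated cells, with dashed lines at the shares of all tested genes (20.5% and 22.3%). Right, median log2 change of each list for TNC alone, TNF alone and both against the same untreated arrays; the interferon, GBP and MHC lists have their largest medians with TNF alone, the stress-response lists with both.

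Among matrix metalloproteinases 7 of 14 rose and 2 fell. Mmp13, an interstitial collagenase, was near background without factors (4.97, 15.7 and 0.94) and read 9118, 10240, 10230 and 9415 with both (log2 change 11.19, SE 0.68, adjusted p = 1.67e-07; 7.98 with 32 added). TNC alone gave 1529 and TNF alone 237, well under the 4 arrays with both. Mmp3, stromelysin 1, read 755, 1244 and 944 untreated and 30790, 30470, 27750 and 29680 with both (log2 change 4.95, SE 0.14, adjusted p = 3.62e-10), where TNC alone gave 18400. Mmp9, a gelatinase, was dim next to Mmp13 and Mmp3, though above the median probe set with both factors. It was higher on each array with both factors (130.5, 109, 107 and 86.7) than on any untreated array (16.1, 12.2 and 7.54). Its log2 change was 3.23 (SE 0.56, adjusted p = 0.000663 in limma), and 1.67 with 32 added. Its means with TNC alone (10.9) and TNF alone (14.3) were near background.

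The inhibitors moved in opposite directions, 1 of 6 higher and 4 lower (1 and 3 with median centring). Timp1 rose from 4886, 4181 and 4212 to 24430, 22360, 20390 and 21750 (log2 change 2.33, SE 0.07, adjusted p = 6.79e-10). Timp3, the tissue inhibitor that binds to the matrix, fell from 15840, 14220 and 15300 to 3902, 3619, 3481 and 5296 (log2 change -1.91, SE 0.13, adjusted p = 3.37e-07), with no array in common. Reck, a membrane-anchored inhibitor, went down from a mean of 12650 to 5387. Of 17 ADAMTS and ADAM proteases 7 rose and 7 fell (7 and 5 with median centring). The aggrecanase Adamts4 rose from 166 to 1089, Adamts7 from 22.7 to 472, and Adam17, the sheddase of TNF, from 1691 to 3852, while Adamts12 and Adamts15 fell from 853 to 279 and from 196 to 36.9.

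Genes of the elastic fibre were lower on balance, with 11 of 18 down and 3 up (6 down and 4 up with median centring). Eln, which encodes tropoelastin, the main protein of the elastic lamellae, read 10430, 7664 and 8048 on the untreated arrays and 224, 188, 299.8 and 205 with both factors (log2 change -5.26, SE 0.23, adjusted p = 1.08e-08). Its means with TNC alone (434) and TNF alone (814) also lay below the untreated arrays. Ltbp1 and Ltbp4, latent TGF-beta binding proteins of the microfibrils, fell from 4087 to 1561 and from 1212 to 469, whereas Ltbp2 rose from 3023, 2529 and 3185 to 12660, 12660, 12380 and 11750 (log2 change 2.09, SE 0.07, adjusted p = 1.97e-09). Fbln1 rose from a dim 99.98 to 237.

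Of 18 fibril-forming and associated collagens 10 fell and 1, Col5a3, rose (391 to 904, not called with the mean over its probe sets); with median centring 9 fell and 3 rose. Col11a1, a minor fibrillar collagen of cartilage, read 1127, 629 and 617 untreated and 43.6, 44.7, 77.9 and 31.8 with both (log2 change -4.02, SE 0.38, adjusted p = 6.23e-06), and Col8a1, a short-chain collagen of vessel walls, 22720, 23090 and 24090 untreated and 10650, 9326, 10070 and 9230 with both. The major collagens moved less: Col1a1 fell from a mean of 7167 to 4001 (log2 change -0.84, SE 0.19, adjusted p = 0.00402), and Col3a1 read 20860, 19790 and 20410 untreated and 21220, 19480, 18760 and 18990 with both, with overlapping arrays, not far from the ceiling (log2 change -0.05, adjusted p = 0.55; -0.21 and called lower after quantile normalization). In the basement membrane list 8 of 20 rose and 10 fell (9 and 8 with median centring). Lama4, a laminin chain of vessels, went up from 900.5, 1110 and 1047 to 5040, 5004, 4547 and 5700, while Lama2 fell from 283 to 64.9 and Col4a3 and Col4a4 from 203 to 33.1 and from 286 to 27.7.

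Matricellular proteins and proteoglycans fell for 14 of 27 members and rose for 6 (11 and 8 with median centring). Aspn (asporin), Ogn (osteoglycin) and Omd (osteomodulin), small leucine-rich proteoglycans that bind collagen, were among the largest falls of all genes. Aspn read 5829, 7383 and 6558 untreated and 152, 212, 361 and 146 with both (log2 change -5.01, SE 0.36, adjusted p = 6.37e-07), Ogn 18960, 18640 and 19250 untreated and 1162, 1598, 1191 and 1001 with both (log2 change -3.96, SE 0.15, adjusted p = 2.97e-09), and Omd 4922, 4844 and 4936 untreated and 227, 244, 211 and 204 with both (log2 change -4.47, SE 0.09, adjusted p = 2.6e-11). Dcn (decorin), of the same family, rose from 6001, 7293 and 7252 to 22100, 21920, 21300 and 21170 (log2 change 1.66, SE 0.07, adjusted p = 6.04e-09). Thbs1, thrombospondin 1, an activator of latent TGF-beta, fell from 17880 to 4838, and Cd44, the hyaluronan receptor, rose from 3877 to 13050.

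Of 25 contractile genes of smooth muscle 20 fell and 0 rose (median -1.33), beside 22.3% and 20.5% of all genes; with median centring 19 fell and 1 rose. Cnn1 (calponin 1), which restrains the actomyosin ATPase, read 1572, 1022 and 1292 untreated and 117, 82.03, 109 and 30.5 with both (log2 change -4.09, SE 0.38, adjusted p = 5.47e-06). Myh11 went from 366, 266 and 407 to 36.5, 43.6, 29.8 and 27.9 (log2 change -3.33, SE 0.20, adjusted p = 1.42e-07) and Myl9, a regulatory myosin light chain, from 13450, 11790 and 12890 to 2755, 2502, 2570 and 2581 (log2 change -2.29, SE 0.08, adjusted p = 2.09e-09). Acta2 and Tagln, both bright, fell by less. Untreated Acta2 was not far from the ceiling, so its fall may be larger than its signals show. Acta2, smooth muscle actin, read 23240, 22230 and 23320 untreated and 17300, 15760, 15720 and 15330 with both (log2 change -0.52, SE 0.06, adjusted p = 1.72e-05), and Tagln (transgelin) 14110, 14270 and 14240 untreated and 8926, 7839, 7360 and 8104 with both (log2 change -0.82, SE 0.07, adjusted p = 2.2e-06), with no overlap between groups. Itga8, the alpha 8 integrin chain, fell from 3032 to 282, and Lmod1 and Synm from 651 to 113 and from 1216 to 216. The 8 smooth muscle markers summed to 52320 to 55660 on untreated arrays and 26830 to 30080 with both factors. Against TNC alone 19 of the 25 were lower with both, and against TNF alone 6 were lower and 2 higher, beside backgrounds of 12.3%, 11.8% and 16.1%.

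Regulators of the smooth muscle state fell for 12 of 19 members and rose for 3 (9 and 3 with median centring). Hey2, a transcriptional repressor downstream of Notch, read 1485, 1822 and 1441 untreated and 199, 259, 220 and 212 with both (log2 change -2.83, SE 0.13, adjusted p = 1.19e-08), and its relatives Hey1 and Heyl fell from 916 to 276 and from 361 to 69.2. Mef2c, a MADS-box transcription factor, fell from 1046 to 222, and Klf15 rose from 353 to 853. Rgs4, which shortens G protein signalling, was among the largest falls of all genes, from 2124, 2262 and 2051 to 131, 92.3, 105 and 77.2 (log2 change -4.43, SE 0.19, adjusted p = 8.24e-09). Markers of adventitial fibroblasts showed no common direction: 3 of 8 rose, with Pdgfra from 2157 to 5550, and 3 fell, with Cd34 from 2558 to 1262. Over all genes 20.5% rose and 22.3% fell. The fibroblast markers summed to 13910 to 14280 on untreated arrays and 10810 to 14070 with both factors. Both tested adipocyte markers fell, Fabp4 from 6263 to 2088 and Adipoq from 162 to 21.03, so the summed list was 5240 to 7195 untreated and 1859 to 2383 with both, and the part of these cells in the result was not tested.

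Growth factor genes moved in both directions. Of 27 TGF-beta ligands, receptors and targets 16 fell and 8 rose (12 and 9 with median centring). The ligands Tgfb2 and Tgfb3 fell, Tgfb3 from 3771, 3448 and 3454 to 573, 526, 598 and 370 (log2 change -2.81, SE 0.16, adjusted p = 7.57e-08) and Tgfb2 from a mean of 5186 to 1509. Smad6, an inhibitory Smad, fell from 6313 to 2538, and Id1, a target of BMP signalling, from 3967 to 1653. Wnt pathway genes fell for 12 of 25, 1 rising. Sfrp2, a secreted Wnt modulator, read 15370, 15610 and 15790 untreated and 3527, 3204, 2893 and 2395 with both (log2 change -2.39, SE 0.11, adjusted p = 1.15e-08), and the receptor Fzd2 fell from 1877 to 579.6.

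Igf1, insulin-like growth factor 1, a survival factor of smooth muscle, read 7074, 6164 and 6818 without factors and 962, 937, 994 and 477 with both (log2 change -3.05, SE 0.21, adjusted p = 4.27e-07). Replicate 4 with both factors was the lowest, and all 4 were below the untreated range. The list of insulin-like growth factors and binding proteins had 4 of 14 higher and 6 lower (7 and 5 with median centring). Igfbp5 rose from 486 to 1486, and Igfbp4 and its protease Pappa fell from 3649 to 1217 and from 2769 to 737. Of 22 ligands and receptors of the PDGF, FGF and VEGF families 6 rose and 8 fell (6 and 5 with median centring). Vegfd fell from 4797, 3545 and 4051 to 458, 401, 365 and 357 (log2 change -3.38, SE 0.12, adjusted p = 2.23e-09) and Vegfc, the other ligand of the lymphatic VEGF receptor, rose from 763, 1056 and 813 to 3452, 4829, 3632 and 2420 (log2 change 2.0, SE 0.21, adjusted p = 1.28e-05). Fgf18 fell from 293 to 13.6, into the background. Of 19 genes of EGF receptor ligands and MAP kinase feedback 8 rose and 5 fell (10 and 3 with median centring), with the ligand Ereg up from 701 to 2222 and the phosphatase Dusp6 from 1039 to 2835. AP-1 and immediate early genes rose in 9 of 16 cases and fell in 4 (9 and 1 with median centring). Fosl1 and Junb, parts of AP-1, rose from 74.5 to 263 and from 651 to 1914, and Egr3 fell from 718 to 112.

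Chondro-osteogenic genes were lower in 11 of 19 cases and higher in 2. The list holds markers of a shift of vascular cells towards cartilage and bone, but also inhibitors of calcification. Its count therefore gives no direction for that shift. Sox9, the master regulator of chondrocytes, read 819, 809.8 and 726 untreated and 136, 134, 149 and 79.4 with both (log2 change -2.69, SE 0.17, adjusted p = 2.57e-07). Sost, whose product sclerostin inhibits Wnt signalling, had the largest fall on the log2 scale among the genes named here. It read 2399, 3369 and 2144 on the untreated arrays and 6.58, 10.97, 21.7 and 16.1, near background, with both factors (log2 change -7.68, SE 0.37, adjusted p = 2.37e-08; -5.85 with 32 added), and was already low with TNC alone (33.3) and TNF alone (32.1). Tnfrsf11b, osteoprotegerin, a decoy receptor that protects arteries from calcification, fell from 8923, 10350 and 8476 to 1360, 2077, 2072 and 1123 (log2 change -2.52, SE 0.24, adjusted p = 5.95e-06).

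Of 34 mitotic genes 25 fell and 0 rose (median -0.79; 18 fell and 1 rose with median centring), and of 30 genes of DNA replication 17 fell and 1, Cdt1, rose, a call lost with the mean over its probe sets (16 and 2 with median centring). Cdc20, which activates the anaphase-promoting complex, read 1210, 809 and 949 untreated and 507, 375, 569 and 444 with both (log2 change -1.06, SE 0.15, adjusted p = 0.000128; -0.36 and not called with the mean over its probe sets), and the replicative helicase subunit Mcm4 1701, 1130 and 1158 untreated and 343, 408, 499 and 325 with both (log2 change -1.75, SE 0.23, adjusted p = 7.47e-05). In both genes untreated replicate 1 was the highest of all, and no treated array reached the untreated range. Ccnd1 (cyclin D1), which drives entry into the cycle, fell from 5398, 5099 and 5212 to 744, 918, 1288 and 846 (log2 change -2.49, SE 0.16, adjusted p = 2.29e-07). Among cell cycle inhibitors and p53 targets 5 of 19 rose and 10 fell (7 and 7 with median centring), with the DNA-damage gene Gadd45a up from 3332 to 10150. With both factors 3 of the 34 mitotic genes were higher than with TNC alone and 0 lower, a share of higher genes near the 9.43% of all genes. Against TNF alone 9 were lower and 0 higher, beside 11.8% and 16.1% of all genes.

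The stress responses of the endoplasmic reticulum and of ATF4 were raised almost throughout. The former expands the capacity to fold secreted proteins, and ATF4 induces genes of amino acid synthesis and uptake. Of 25 genes of the unfolded protein response 24 rose against untreated cells, 20 against TNC alone and 23 against TNF alone, beside backgrounds of 20.5%, 9.43% and 16.1%, and 0 fell in any of the 3. The medians of this list were 0.91 with both factors, 0.48 with TNC alone and 0.19 with TNF alone, each against untreated cells. Sdf2l1, a partner of the chaperone BiP, read 1011, 905 and 902 untreated and 6104, 7145, 4032 and 11710 with both (log2 change 2.84, SE 0.37, adjusted p = 6.91e-05). Treated replicate 3 was lowest and replicate 4 highest, an order that recurred in Herpud1 (7001, 8022, 5620 and 10360) and Creld2 (4372, 5714, 3526 and 9078), whose untreated means were 2173 and 1527. Ero1a and Ero1b, oxidases that form disulphide bonds, rose from 3402 to 9868 and from 127 to 559.

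Of 23 genes of the ATF4 integrated stress response 22 rose (median 1.46), 18 were above TNC alone, and 20 were above TNF alone with 1 below. The shares of all genes called higher in these comparisons were 20.5%, 9.43% and 16.1%. Ddit3 (CHOP), a transcription factor of prolonged stress, read 1646, 1296 and 1457 untreated and 8150, 10060, 6021 and 13280 with both (log2 change 2.62, SE 0.32, adjusted p = 4.06e-05). Its means with TNC alone (5015) and TNF alone (3829) lay between. Trib3, which restrains this response, rose from 797 to 3546, Asns (asparagine synthetase) from 2421 to 7676 and the mitochondrial folate enzyme Mthfd2 from 1133 to 4713. Stc2 (stanniocalcin 2) read 137, 126 and 138 untreated and 1256, 1201, 1147 and 1466 with both (log2 change 3.24, SE 0.15, adjusted p = 1.54e-08), where TNC alone gave 652 and TNF alone 151.

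Metabolic genes divided by pathway. Glycolysis and hypoxia genes rose in 16 of 23 cases and fell in 2 (19 and 1 with median centring), with Hk2 (hexokinase 2) going from 629, 633 and 567 to 2030, 1786, 1850 and 2214 (log2 change 1.69, SE 0.10, adjusted p = 1.04e-07) and the vasodilator peptide Adm from 1093, 1076 and 1072 to 7061, 6214, 6391 and 6026 (log2 change 2.57, SE 0.09, adjusted p = 1.85e-09). Slc2a1, the basal glucose transporter, rose from 4169 to 9870, and Slc2a6, a transporter of the same family, from 12.7 to 1618, with 3174 under TNF alone. Fatty acid oxidation had 7 of 17 lower and 0 higher (6 and 1 with median centring), for example Acadm, a medium-chain dehydrogenase, from 3743 to 1929. Oxidative phosphorylation moved little, with 3 of 28 higher and 4 lower, below the background shares, but 13 higher and 0 lower with median centring, so its direction depends on the scaling. Cholesterol synthesis and uptake fell in 10 of 20 cases and rose in 3 (7 and 3 with median centring). Yet 11 were higher and 0 lower than with TNC alone, beside 9.43% and 12.3% of all genes. Cyp51 (lanosterol demethylase) had levels of 1174 without factors, 436 with TNC alone, 873 with TNF alone and 729 with both. In cholesterol efflux and scavenging 4 of 12 rose and 4 fell, with 5 and 0 after median centring. Ch25h, which makes 25-hydroxycholesterol, went from 126, 121 and 136 to 5218, 4786, 5376 and 4406 (log2 change 5.27, SE 0.15, adjusted p = 3.54e-10), and the cholesterol exporter Abca1 from a mean of 2816 to 8767.

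Enzymes that make reactive or signalling molecules also changed. Of 22 antioxidant and NADPH oxidase genes 12 rose and 3 fell. Sod2, the mitochondrial superoxide dismutase, read 2942, 2890 and 2858 untreated and 19410, 17980, 17180 and 17120 with both (log2 change 2.63, SE 0.05, adjusted p = 2.08e-11). Cybb (NOX2), the oxidase subunit best known from phagocytes, rose from 910.3, 923 and 979.6 to 9183, 9906, 9168 and 7251 (log2 change 3.23, SE 0.11, adjusted p = 1.74e-09), and Nox4, the oxidase of smooth muscle, fell from 4365 to 1626. Of 19 prostaglandin genes 7 rose and 2 fell. Ptgs2, cyclooxygenase 2, read 1216, 934 and 905 untreated and 9549, 10550, 12080 and 7815 with both (log2 change 3.29, SE 0.19, adjusted p = 1.31e-07), above its means with TNC alone (3289) and TNF alone (2012), whereas Ptgis, prostacyclin synthase, fell from 5500 to 2540. Of 13 enzymes of arginine, nitric oxide, itaconate and tryptophan 5 rose and 4 fell (6 and 2 with median centring). Arg2 (arginase 2) had levels of 9.38 without factors, 782 with TNC alone, 163 with TNF alone and 1088 with both. Nos2, the inducible nitric oxide synthase, was dim, though above the median probe set with both factors. It read 7.06, 46.9 and 8.67 untreated and 122, 136, 133 and 83.3 with both. Its log2 change was 3.04 (SE 0.55, adjusted p = 0.000869 in limma), and 1.58 with 32 added. Acod1, which makes itaconate, averaged 165 with both factors and 481 with TNF alone. Coagulation and plasminogen genes rose in 3 of 14 cases, near the 20.5% of all genes, and fell in 7, beside 22.3% (5 and 7 with median centring). Serpinb2, an inhibitor of plasminogen activators, rose from 16.3 to 249.5, and F3 (tissue factor) fell from 601 to 227.

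Receptors and partners of tenascin C rose in 4 of 17 cases and fell in 8 (7 and 6 with median centring). Over all genes 20.5% rose and 22.3% fell, so the share of these genes that rose is near the background. Tlr4, which binds the fibrinogen-like globe of TNC, read 884, 1022 and 979.9 untreated and 1473, 1477, 1638 and 1486 with both (log2 change 0.66, SE 0.06, adjusted p = 3.57e-06; 0.4 and not called with the mean over its probe sets), and Sdc4, syndecan 4, rose from 4806 to 7726. Itga8 fell, as given among the contractile genes, Itgb1, the common beta 1 integrin chain, fell from 7074 to 4600 (not called with the mean over its probe sets) and Ptprz1, a receptor phosphatase, from 1064 to 394.

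A set of 16 genes stands out because the 4 arrays with both factors lie outside all of the other 10 arrays of cells by the widest gaps, 8 above and 8 below. Their choice by this gap makes their order a description and leaves no test. Igfbp3, the main carrier of insulin-like growth factors in blood, read 1839, 2174, 2034 and 2556 with both factors, while its means were 419 without factors, 362 with TNC and 474 with TNF. Cemip, a hyaluronan-degrading protein, moved the other way, at 328, 241, 240.2 and 173 with both factors against means of 2477, 2409 and 1976. In both genes the means with a single factor stayed close to that of untreated cells. Gpr84, a receptor for medium-chain fatty acids, read 1558, 1761, 1474 and 1969 with both factors, against 20.1, 156 and 284 in the same order of groups. Abca13, a lipid transporter of the ABC family, and Slc36a2, a proton-coupled amino acid transporter, had means of 817 and 1076 with both factors, and no more than 82.1 and 168 in any other group. Csf2, Cxcl5, Mmp13 and Pf4, described above, complete the upper group.

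Apart from Cemip, the lower group held genes whose means with each single factor lay below that of untreated cells, and with both factors lower still. Colec11, a collectin of the lectin pathway of complement, read 4341, 4234 and 4796 without factors and 140.1, 113, 130.4 and 107 with both (log2 change -5.19, SE 0.14, adjusted p = 2.2e-10 against untreated cells), and its means with the single factors were 674 (TNC) and 798 (TNF). Its relative Colec10 averaged 419 without factors and 35.2 with both. Npr3, the clearance receptor of natriuretic peptides, read 4303, 4429 and 3800 untreated and 216, 180.2, 239 and 140.2 with both (log2 change -4.45, SE 0.18, adjusted p = 5.08e-09). Angptl1, an angiopoietin-like protein, fell from 1451 to 45.98, Ugt8a, which makes galactosylceramide, from 1198 to 55.1, Akr1c14, a hydroxysteroid dehydrogenase, from 10690 to 1101, and Cdcp3 from 565 to 80.7. In each of these the levels with TNC alone and with TNF alone lay between the untreated arrays and those with both factors.

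**Figure D4:**
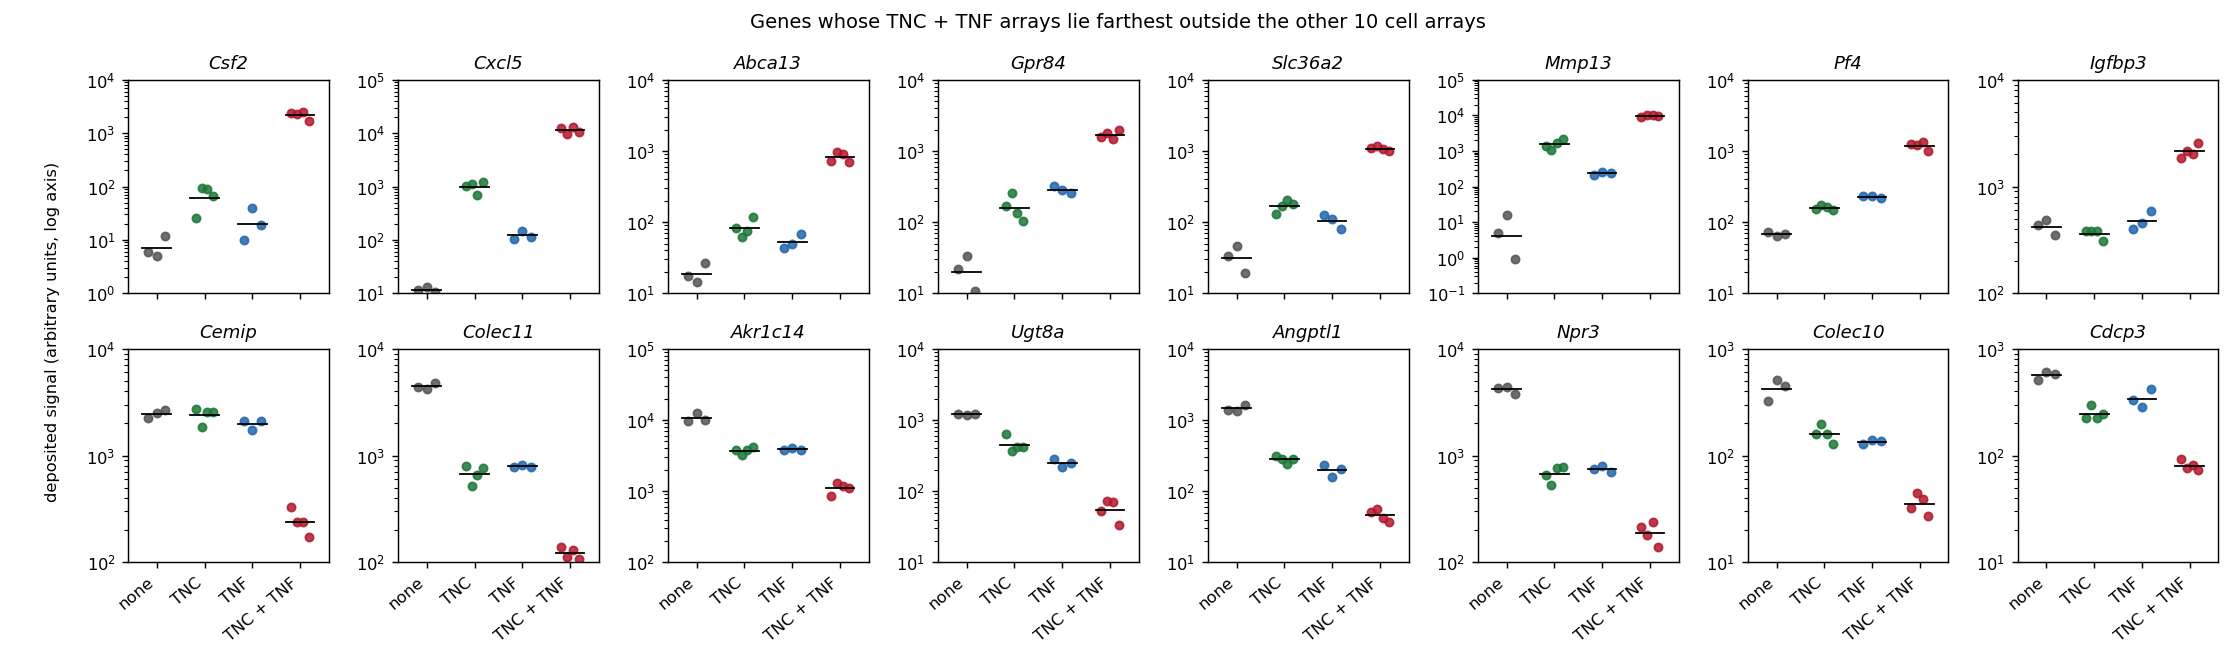
Deposited signal (log axis, arbitrary units) of the 16 genes whose arrays with TNC and TNF lie farthest above (upper row) or below (lower row) the other 10 arrays of cells; points are arrays and bars geometric means. Igfbp3 and Cemip differ from the rest in that the means with a single factor lie close to that of untreated cells.

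The other genes among the 15 largest falls were Inmt, an indole methyltransferase (2566, 2956 and 2841 to 139, 87.8, 294 and 73.3; log2 change -4.45, SE 0.49, adjusted p = 1.88e-05), Aldh1a7, an aldehyde dehydrogenase (592 to 13), Prss35, a serine protease (2295 to 168), and Sertad4 (4144 to 365). Inmt was at 45.5 with TNF alone, under its level with both. Il13ra2, the decoy receptor of interleukin 13, was the remaining gene among the largest rises, from 84.9, 90.5 and 117 to 4281, 4339, 4054 and 4110 (log2 change 5.44, SE 0.10, adjusted p = 2.08e-11). On the whole, 68 genes went from near background to above the median probe set, and 33 went from above the median probe set to near background. The reference genes Actb and Hprt did not pass limma's test, with changes of -0.02 (adjusted p = 0.873) and 0.04 (adjusted p = 0.609). Actb was called lower after quantile normalization (-0.17) and Hprt higher after median centring (0.25). Gapdh, also planned as a reference, had no probe set that names it alone.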

How the data were processed

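RNA of 22 samples was hybridised to Affymetrix Mouse Genome 430 2.0 arrays. The deposited table holds intensity values on a linear scale, made by the authors in Affymetrix Expression Console per the submitters' processing notes. Neither its version nor the algorithm or scaling is given in the sources used here. On every array the middle 96% of probe sets average 500, while medians of the 7 compared arrays run from 51.0 to 64.6. No count lies behind an array value, and the number of arrays limits the precision.

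Of 45101 probe sets, 64 controls, 932 with several gene symbols and 9160 with none were left out. The remaining 34945 stood for 18193 genes, each represented by the probe set of highest mean log2 value over the 22 arrays. The 15636 tested genes reached the array's 30th percentile in 3 or more of the 14 arrays of cells. Genes near background without factors can pass this filter through stimulated arrays, which favours rises in a list's count. The 4 treatment groups were fitted together with limma 3.58.1 in R 4.3.3 on log2 values (10 residual degrees of freedom), with Benjamini-Hochberg adjustment over all tested genes and a threshold of 0.05. Printed adjusted p-values are limma's, group means are geometric, and a list's count covers its tested members only.

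The members and lists were chosen with earlier results of these data known, so no list is independent evidence. The text names Tnc, the 15 largest changes each way on the scale of log2(signal + 32) among called genes without overlap, the 8 genes at each end by gap to the other arrays of cells, up to 6 members of each of 43 hand-written lists, 27 fixed genes and cell type markers. Of the fixed genes, the reference gene Gapdh had no probe set that names it alone and has no values here. Rela, Tlr6, Il1r1 and Cdt1 fall outside this rule and were named after their values were seen. Nfkb1, Tnip3 and Ripk2 are named only as not tested. Groups follow the treatment labels. The TNC-alone arrays are titled "TNC or TNF", and hours in the source names, which count from 23 to 36 over the cell arrays, differ from the design text and were not used.

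Same-numbered arrays of the 2 compared groups did not deviate together (correlations 0.023, 0.007 and 0.011). Nor did those of untreated and TNF-alone arrays (-0.008, 0.02 and -0.007) or of TNC-alone arrays and arrays with both (0.034, -0.014, 0.039 and -0.01). No pairing by number was seen, but cultures shared under another numbering would not show in this check. The fit takes the arrays as independent, which these values do not establish. On simulated data for this comparison (15636 genes, 200 changed), 63.5% of changes of log2 1 and 83.5% of changes of log2 2 were recovered, with 5.22% and 4.57% of calls false. The simulation had independent noise, no shifts of whole arrays and far fewer changed genes than the 42.9% called in the data. Its shares therefore need not hold for the real calls. Motifs were searched on both strands of RefSeq promoters. Alternatives were a fit on the 7 arrays, quantile normalization, median centring, log2(signal + 32), other filters and probe sets, another variance model, the replicate number as a block, leaving out each array and, added after seeing the data, culture as a random block. Of the labels' cultures it is not said whether arrays of one group share animals, so p-values measure the spread between these cultures.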

Additional observations from a re-analysis of the deposited data

Results flagged for a closer look

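For 196 tested genes named in the text, each of the 4 arrays with both factors was compared with the remaining 3, and in 13 genes the highest or lowest array stood farther from the nearest of the others than Dixon's 95% critical value for 4 samples allows. Chance flags about 1 in 20 groups. Array 4 was low in Arg2 (762.4, next 1194), Camp (388.7, next 509.8), Csf3 (609.9, next 1133), Igf1 (476.7, next 937.1), Sox9 (79.38, next 134.5), Tlr2 (4799, next 6192) and Tnc (66.26, next 80.47). Array 3 was high in Cd34 (1346, next 1238) and Tlr4 (1638, next 1486). Array 1 was low in Col4a3 (17.27, next 38.36) and Tyrobp (8.389, next 20) and high in Rela (4743, next 4268). Array 2 was low in Cdh5 (2203, next 2440).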

How the results depend on the processing

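Under 11 alternatives and 7 fits that each left out 1 array, 3 of the 4 counts of genes (higher, and at least 2-fold higher or lower) stayed within 1.5 times their main value. The count of lower genes did too, except that median centring gave 1906 in place of 3488. Leaving out single arrays gave 2821 to 3191 higher and 2995 to 3416 lower genes. With the replicate block, 2977 were higher and 3257 lower, and 90.2% of the main calls were made in the same direction. Arrays with the same number and TNC state were also taken as 1 culture, as a random block, an alternative chosen after seeing the data (consensus correlation 0.035); it gave 3217 higher and 3496 lower genes, 1529 and 1999 against TNC alone, and 2520 and 1843 against TNF alone. Of 196 named genes, 193 could be compared under all 18 alternatives, and 178 of these kept direction and call; the 50th percentile filter left out the other 3. Tnc reversed with the mean over its probe sets (0.18). Calls were lost by Tlr6, Tyrobp and Adgre1 in several fits, by Emcn and Vwf with median centring, and by Cdc20, Cdt1, Col5a3, Itgb1, Tlr4 and Tyrobp with the mean over probe sets. Calls were gained by Il1r1 with median centring (0.36) and the replicate block (0.15), by Pecam1 (0.33) and Hprt (0.25) with median centring, and by Actb and Col3a1 with quantile normalization (-0.17 and -0.21) and the mean over probe sets (-0.31 and -0.57). Changes of dim genes are limited by signal over background.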
